A study of Mus musculus with 16 samples.

Results

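Liver RNA of 4 female CRE- mice was compared with that of 4 male CRE- mice, the control animals of a study of the hepatic glucagon receptor. The libraries were chosen by their labels of sex and genotype, which gave 8 of the 16 libraries of the series, and genes were kept where the table placed them on an autosome, 39067 of 41079, of which 16212 had enough reads to be tested. CRE- mice carried floxed Gcgr, the glucagon receptor gene with recombination sites for Cre, but no Cre transgene; their LKO counterparts carried the same alleles together with Cre under the Albumin promoter, which acts in hepatocytes, so that other liver cells keep the receptor. All mice were of the C57BL/6J background, 20 to 22 months old and fed chow, and no group received a treatment. Each library came from the frozen liver of 1 mouse and its poly-A RNA was sequenced from both ends on a NovaSeq X. Mice were housed in groups by sex, so sex, cage and the letter of the library name cannot be told apart. "Higher" and "lower" below are always female relative to male, levels are CPM, the reads of a gene scaled to the depth of its library, replicates are listed in the order 1 to 4, and the abundance of different genes is compared per kilobase.

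The livers of male and female rodents differ in the enzymes that clear drugs and steroids, in urinary and plasma proteins and in lipid handling. Growth hormone is released in pulses in males and almost continuously in females, and hepatocytes read that pattern through the growth hormone receptor and STAT5B, together with BCL6, which is favoured in males, and CUX2 and HNF6, which are favoured in females. Cytochrome P450 enzymes oxidise drugs, steroids and fatty acids, sulfotransferases attach sulfate to steroids and bile acids, and major urinary proteins (MUPs) carry pheromones.

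The female CRE- libraries held 46228166 to 56488920 counted reads (median 46840916) and the male CRE- libraries 39577958 to 49713515 (median 44288170). Xist, the RNA of the inactive X chromosome, was at 386, 399, 334 and 137 CPM in the females and 0.243, 0.0446, 0 and 0.180 CPM in the males. Ddx3y, on the Y chromosome, was at 62.5, 48.8, 91.5 and 38.5 CPM in the males and had no reads in the females, so each library matched its label. Gcgr was present in all 8, at 162, 208, 201 and 179.99 CPM in the females and 190.4, 193, 127 and 189.6 CPM in the males, and was not called (log2 fold change 0.10, SE 0.24, edgeR adjusted p = 0.890). All 13 hepatocyte markers were detected, led per kilobase by Alb, and they summed to 158296, 144070.1, 150421 and 175829 CPM in the females and 94348, 123750.4, 146867 and 124065 CPM in the males. The lowest sum was in male replicate 1, and 0 of the 13 were called by edgeR (2 with an unadjusted p under 0.05, 1 by DESeq2 and 1 by limma-voom).

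A pair of libraries stood apart from the rest. In male replicate 3 the 10 most abundant genes took 25.25% of reads and only 18325 genes had a read, and it lay at -98.73 on the first principal component of the 8 libraries, which held 37.2% of the variance. Female replicate 4 had a scaling factor of 0.807 and 10 leading genes with 23.04% of reads. The non-coding gene Gm26917 took 4.39% of reads in female replicate 4 and 3.23% in male replicate 3, against 0.283% to 0.552% in the others. Counts of called genes without these libraries are given where they differ by over 1.5 times.

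Between female and male control livers, 147 of the 16212 autosomal genes (0.907%) were called at an edgeR adjusted p under 0.05, 66 higher (0.407%) and 81 lower (0.5%). The differences were large: 96 of the 147 were at least 4-fold, and the median log2 fold change was 2.45 for those higher and -2.86 for those lower, against -0.01 over all genes tested. In 144 of the 147 the female and male values did not overlap, which held for 1214 (7.49%) of all genes tested. The 147 were picked on these same values, so their size and separation follow in part from that choice. Among the 4 groups of genes listed by role, drug metabolism had the most called genes, with 21 higher and 5 lower of 220 tested. Secreted proteins had 2 higher and 5 lower of 160, lipid metabolism 1 higher and 6 lower of 146, and immune genes 0 higher and 1 lower of 188. The balance of the lipid genes depended on the tool, with 5 higher and 3 lower by limma-voom and 4 higher and 6 lower by DESeq2. Together these lists held 39 of the called genes, and 108 lay outside them. Because the tissue was sequenced in bulk, fewer cells of a type and less RNA per cell cannot be told apart.

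DESeq2 called 495 genes on the same counts, 229 higher and 266 lower, and limma-voom 313, 171 higher and 142 lower. From the 8 CRE- libraries alone edgeR called 240, or 230 when male replicate 3 was also left out. In the fit of all 16 libraries 2057 genes had an unadjusted p under 0.05. In that fit the count fell to 62, 68 and 118 without male replicate 1, 3 or 4 and to 76, 65, 84 and 65 without female replicate 1, 2, 3 or 4, and was 142 without male replicate 2. Of the 147 genes 49 were called in all 8 of those fits. Those fits kept every LKO library, and the control contrast was not read with single LKO libraries left out.

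**Figure D1:**
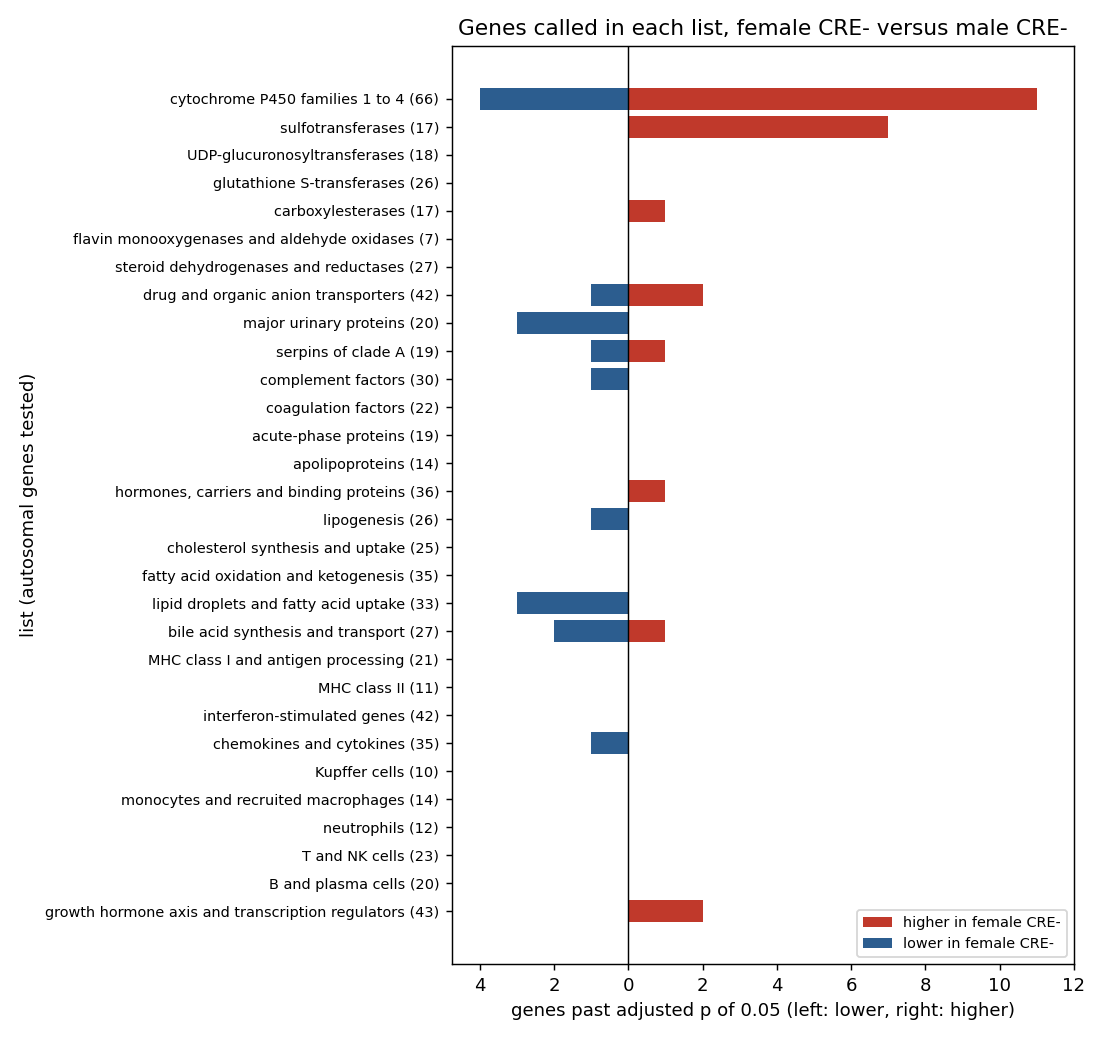
Number of genes called higher (right) and lower (left) in female than in male CRE- liver at an edgeR adjusted p under 0.05, for each list with the number tested. Cytochrome P450 genes (11 higher, 4 lower of 66) and sulfotransferases (7 higher of 17) hold most of the called genes of the lists.

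Cytochrome P450 families 1 to 4 gave 11 genes higher and 4 lower of 66 tested, with a median log2 fold change of 0.32. Those 11 became 7 without any one of male replicates 1 and 3 or female replicate 4 and 17 by DESeq2. The count of 4 was unchanged in each fit without 1 library. A block of Cyp3a genes, whose products oxidise steroids and many drugs, was almost confined to females. Cyp3a41b was measured at 221, 286, 153 and 255 CPM in the females and 0.0203, 0.0223, 0.0520 and 0.0225 CPM in the males (log2 fold change 12.84, SE 0.88, edgeR adjusted p = 2.58e-07). Cyp3a41a was at 876, 1011, 682 and 751 CPM in the females and 0.507, 0.713, 0.598 and 0.270 CPM in the males (log2 fold change 10.63, SE 0.92, edgeR adjusted p = 4.62e-06). Every female lay far above every male for both genes, and the male counts were close to none. Cyp3a16 was at 333, 217, 158 and 219 CPM in the females and 3.16, 2.38, 3.38 and 2.63 CPM in the males (log2 fold change 6.32, SE 0.52, edgeR adjusted p = 2.81e-06). Cyp3a44 was at 397, 331, 191 and 205 CPM in the females and 2.62, 2.61, 3.93 and 1.57 CPM in the males (log2 fold change 6.71, SE 0.58, edgeR adjusted p = 4.56e-06). Female replicate 3 was the lowest female for all 4 genes, and no male came near it. These 4 genes are neighbours on chr5:145373119-145742701 of GRCm39 and were all of the genes tested in that interval. Cyp3a11, the main Cyp3a gene of both sexes, picked after its values were seen, was at 2253, 2277, 2846 and 2075 CPM in the females and 2549.9, 3366, 3535 and 2657 CPM in the males, with overlap, and was not called (-0.36, adjusted p = 0.577 by edgeR).

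Members of the Cyp2c and Cyp2a families, which act on drugs, arachidonic acid and steroids, were also higher in females. Cyp2c69 was at 566, 1091, 723 and 862 CPM in the females and 1.28, 9.38, 4.19 and 1.64 CPM in the males (log2 fold change 7.62, SE 0.83, edgeR adjusted p = 8.41e-05). Cyp2c40 was at 284, 400.1, 379.5 and 373 CPM in the females and 4.18, 25.6, 12.2 and 3.48 CPM in the males (log2 fold change 4.98, SE 0.75, edgeR adjusted p = 0.00227). Cyp2a4, a steroid hydroxylase, was at 583, 631, 1104 and 899 CPM in the females and 5.80, 19.9, 10.9 and 5.35 CPM in the males (log2 fold change 6.26, SE 0.93, edgeR adjusted p = 0.00210). In all 3 genes the groups were far apart, and male replicate 2 was the highest male. Without it the log2 fold changes of Cyp2c69 and Cyp2c40 were 8.43 and 5.77. Cyp2c70, which makes the muricholic acids of mouse bile, had a smaller difference on a high level, 1149.7, 854, 767 and 1066 CPM in the females and 281, 473, 420.0 and 412 CPM in the males (log2 fold change 1.27, SE 0.25, edgeR adjusted p = 0.0193). Its call was lost without any one of male replicates 1 and 3 or female replicates 1 and 4 (adjusted p from 0.0573 to 0.0862). Cyp2c39, Cyp2c68 and Cyp2a22 were called with log2 fold changes of 2.27, 1.48 and 4.04. With 1 library left out the log2 fold changes ran from 2.01 to 2.95, 1.35 to 1.75 and 3.76 to 4.52. Cyp2c39, highest without male replicate 2, lost its call without any one of male replicates 1, 3 and 4 or female replicates 2 and 4 (adjusted p from 0.0720 to 0.105), Cyp2c68 without any one of male replicates 1, 3 and 4 or female replicates 1, 2, 3 and 4 (adjusted p from 0.0758 to 0.153), and Cyp2a22 in each of the 8 fits without 1 CRE- library (adjusted p from 0.0641 to 0.173). The 5 called Cyp2c genes lie among 10 tested genes on chr19:39335790-40175730. The Cyp2b genes, picked out after their values were seen, did not pass the test although no female and male values overlapped: Cyp2b10 was at 23.1, 81.5, 60.5 and 60.4 CPM in the females and 6.61, 14.7, 9.83 and 3.80 CPM in the males (2.69, adjusted p = 0.0568 by edgeR), and Cyp2b9 and Cyp2b13 had log2 fold changes of 2.64 and 4.99 (adjusted p = 0.217 and 0.213).

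The 4 P450 genes that were lower in females included enzymes of fatty acid and steroid oxidation. Cyp4a12a, which hydroxylates fatty acids, was at 0.0444, 0.117, 0.0479 and 0.160 CPM in the females and 78.1, 138, 124 and 113 CPM in the males (log2 fold change -10.23, SE 1.06, edgeR adjusted p = 4.47e-05). Its neighbour Cyp4a12b had reads in 1 female, with 0, 0, 0 and 0.160 CPM in the females and 20.5, 16.3, 9.65 and 26.2 CPM in the males (log2 fold change -8.90, SE 1.19, edgeR adjusted p = 0.000667). Both were read in all 4 males and nearly absent from the females. Without female replicate 4, the 1 with reads, Cyp4a12b had no reads in the females, so no exact fold is given. Cyp2d9, a testosterone hydroxylase, was at 8.83, 12.4, 27.5 and 19.9 CPM in the females and 661, 621, 422 and 883 CPM in the males (log2 fold change -5.23, SE 0.51, edgeR adjusted p = 1.88e-05). Cyp2u1 was at 1.13, 0.779, 0.575 and 0.989 CPM in the females and 11.8, 6.82, 12.5 and 5.44 CPM in the males (log2 fold change -3.39, SE 0.51, edgeR adjusted p = 0.00215). Males lay above females in every library for each gene. All 4 calls held in each edgeR fit without 1 library, but limma-voom did not call Cyp4a12a (adjusted p = 0.0583). The most abundant P450 per kilobase, Cyp2e1, which oxidises ethanol and small solvents, was at 4107, 5103, 6316 and 5517 CPM in the females and 5229, 8126, 1492 and 5902 CPM in the males. It overlapped and was not called (log2 fold change 0.02, SE 0.45, edgeR adjusted p = 0.991), with the lowest value in male replicate 3. Reads that map to several places were dropped before counting, so levels of near-identical genes (Cyp2a, Cyp2b, Cyp2c, Cyp2d, Cyp3a, Cyp4a, Sult2a, Ces, Mup, Serpina and Slc22a paralogs) are uncertain.

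**Figure D2:**
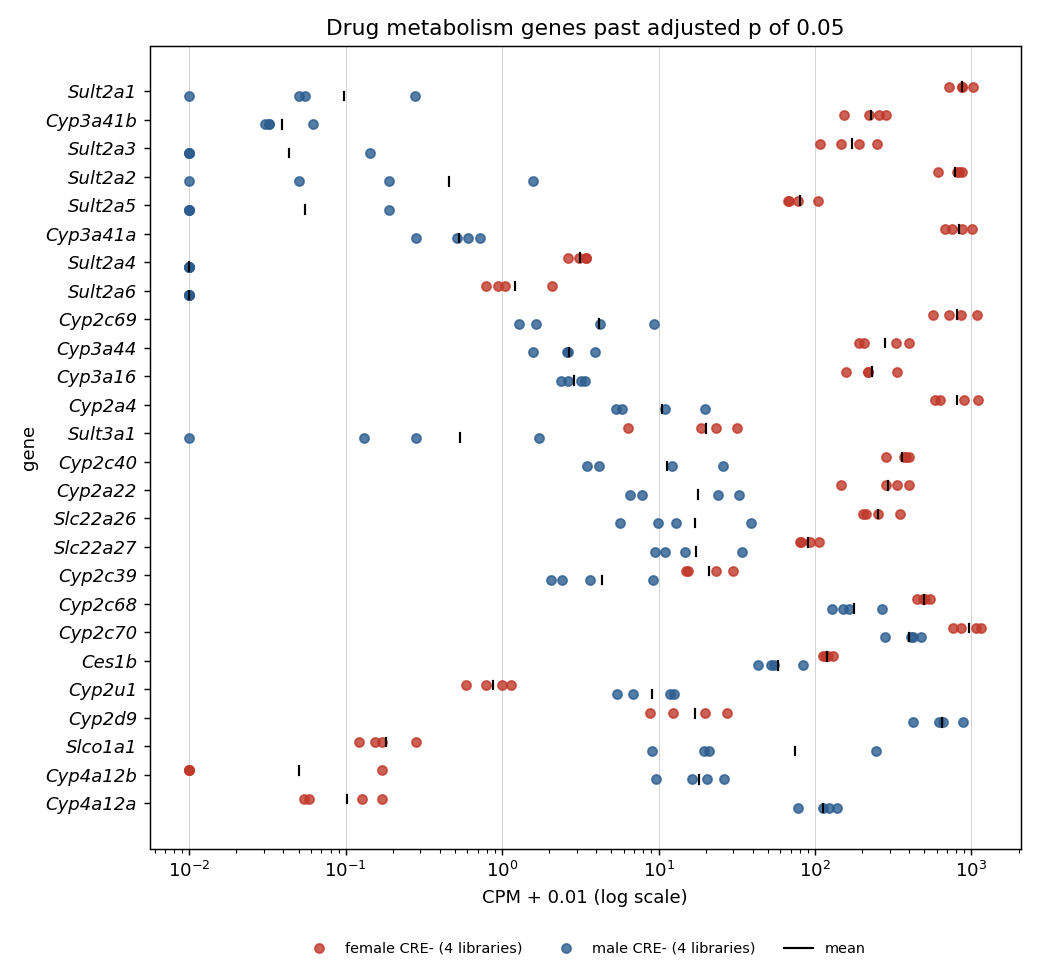
CPM (log axis, 0.01 added) of the 26 called genes of the drug metabolism lists in each female and male CRE- library, 1 point per mouse. The 21 genes higher in females and the 5 lower in females have no female point among the male points.

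Of 17 sulfotransferase genes tested, 7 were higher in females and 0 lower, with a median log2 fold change of 5.23. Every female lay above every male in 10 of the 17 and below in 2, against no overlap in 7.49% of all genes tested. All 6 called Sult2a genes, whose products sulfate bile acids and hydroxysteroids, lie together with the pseudogene Tmem167-ps1 on chr7:13357892-13988795, where all 7 genes tested were higher. Sult2a1 was at 721, 1028, 867 and 873 CPM in the females and 0.0406, 0.267, 0 and 0.0449 CPM in the males (log2 fold change 13.20, SE 2.44, edgeR adjusted p = 0.0147). Sult2a2 was at 614, 865, 807 and 832 CPM in the females and 0.0406, 1.56, 0 and 0.180 CPM in the males (log2 fold change 10.76, SE 2.41, edgeR adjusted p = 0.0418). Sult2a3 had reads in 1 male only, with 108, 248, 192 and 146 CPM in the females and 0, 0.134, 0 and 0 CPM in the males (log2 fold change 12.21, SE 2.04, edgeR adjusted p = 0.00622). All 4 females were high in each gene, and male replicate 2 was the highest male in all 3. Without it the log2 fold changes of Sult2a1 and Sult2a2 were 14.69 and 13.29. Sult2a3 then had no reads in the males, so no exact fold is given. Sult2a4 had no reads in the males and 2.62, 3.08, 3.42 and 3.45 CPM in the females, at least 184-fold higher when the male group is given the 3 reads that a count of 0 allows (edgeR adjusted p = 0.00833). Sult2a6 and Tmem167-ps1 were likewise unread in males and at least 68.6-fold and 212-fold higher, by counting error alone. These bounds take each read as independent, and because a fragment can give 2 reads they may be too high. Sult2a5 (log2 fold change 10.69, adjusted p = 0.0188) and Sult3a1 (5.23, adjusted p = 0.0445) were the other genes called, with 14.73 and 7.19 without male replicate 2. Sult2a3, Sult2a4 and Sult2a6 kept their calls in each edgeR fit without 1 library, but limma-voom did not call Sult2a3 (adjusted p = 0.152). Sult2a1 lost its call without any one of male replicates 1, 3 and 4 (adjusted p from 0.0502 to 0.0741), Sult2a5 without any one of male replicates 1, 2, 3 and 4 (adjusted p from 0.0553 to 0.0862), Sult3a1 without any one of male replicates 1, 3 and 4 or female replicates 1, 2, 3 and 4 (adjusted p from 0.0799 to 0.168), and Sult2a2 in each of the 8 fits without 1 CRE- library (adjusted p from 0.0556 to 0.162). Sult1e1, the estrogen sulfotransferase, picked after its values were seen, was not called at 29.7, 13.7, 2.49 and 26.4 CPM in the females and 0, 0.446, 0.156 and 0.202 CPM in the males (6.48, adjusted p = 0.110 by edgeR), although no values overlapped. The list count was 3 without male replicate 1, 3 or 4, and the 8 CRE- libraries alone gave 10 higher and 2 lower. Sult2a2 was among those called higher from the 8 alone.

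The other enzyme families gave few or no calls. None of 18 UDP-glucuronosyltransferases was called by edgeR (4 with an unadjusted p under 0.05, 1 by DESeq2 and 1 by limma-voom; median 0.16), and the most abundant, Ugt2b5, was at 415, 795, 888 and 520.1 CPM in the females and 565, 929.5, 607 and 570.4 CPM in the males, with overlap. None of 26 glutathione S-transferases was called by edgeR (8 with an unadjusted p under 0.05, 2 by DESeq2 and 3 by limma-voom), with a median of 0.53. Mgst1, their most abundant gene, was at 1799, 3085, 3116 and 2865 CPM in the females and 2447, 3762, 1412 and 2810.2 CPM in the males. Male replicate 3 was the lowest library for Mgst1, and females and males overlapped. None of 7 flavin monooxygenases and aldehyde oxidases was called by edgeR (5 with an unadjusted p under 0.05, 2 by DESeq2 and 0 by limma-voom). When fitted to the 8 CRE- libraries alone, edgeR called 1 of these 7 and 1 glutathione S-transferase. None of 27 steroid dehydrogenases and reductases was called by edgeR (8 with an unadjusted p under 0.05, 4 by DESeq2 and 1 by limma-voom). From the 8 CRE- libraries alone edgeR called 3, all lower, or 2 without male replicate 3. Hsd3b5, picked for its small p, was at 0, 0.156, 0.144 and 0 CPM in the females and 2.92, 0.847, 9.72 and 2.20 CPM in the males (-5.58, adjusted p = 0.0912 by edgeR). Without male replicate 2 edgeR called 1 gene each of the glucuronosyltransferases, the glutathione S-transferases and the steroid enzymes, and without female replicate 1 it called 1 glutathione S-transferase. Among 17 carboxylesterases, which cleave ester drugs and lipids, Ces1b was the 1 called by edgeR, at 131, 113, 121 and 115 CPM in the females and 52.1, 83.3, 42.9 and 54.5 CPM in the males (log2 fold change 1.04, SE 0.23, edgeR adjusted p = 0.0390), and its call was lost without any one of male replicates 1, 3 and 4 or female replicates 1, 2, 3 and 4 (adjusted p from 0.0872 to 0.153). DESeq2 called 3 higher and 1 lower, limma-voom 3 higher and 0 lower, and edgeR 1 higher and 2 lower from the 8 CRE- libraries alone. The most abundant genes of the last 3 lists were not called either: Ces1c was at 4427, 4037, 4395 and 4244 CPM in the females and 2177, 2777, 1840.2 and 2483 CPM in the males (log2 fold change 0.88, SE 0.21, edgeR adjusted p = 0.0653), and Fmo5 and Akr1c6 had log2 fold changes of -0.36 and 0.23 (adjusted p = 0.693 and 0.787). For Ces1c every female was above every male.

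Of 42 drug and organic anion transporters, 2 were higher and 1 lower, with a median of -0.23. Slc22a26 and Slc22a27, neighbours on chr19:7757459-7943899 that belong to the organic anion carriers, were higher in females. Slc22a26 was at 347, 212, 252 and 204 CPM in the females and 12.9, 39.3, 5.67 and 9.98 CPM in the males (log2 fold change 3.90, SE 0.75, edgeR adjusted p = 0.0193). Slc22a27 was at 81.0, 93.5, 106 and 80.2 CPM in the females and 10.96, 34.3, 14.7 and 9.51 CPM in the males (log2 fold change 2.38, SE 0.51, edgeR adjusted p = 0.0348). No values overlapped, and male replicate 2 was the highest male for both. Without it the log2 fold change of Slc22a26 was 4.74. Slco1a1, an uptake carrier for bile acids and steroid conjugates, was lower, at 0.111, 0.273, 0.144 and 0.160 CPM in the females and 20.96, 9.02, 247 and 19.4 CPM in the males (log2 fold change -8.70, SE 1.64, edgeR adjusted p = 0.0171). Male replicate 3 was far above the other males, and without it the log2 fold change was -6.56. Every male was above every female. Slc22a26 lost its call without any one of male replicates 1, 3 and 4 or female replicate 1 (adjusted p from 0.0501 to 0.0868), Slc22a27 without any one of male replicates 1, 3 and 4 or female replicates 1, 2, 3 and 4 (adjusted p from 0.0675 to 0.132), and Slco1a1 without any one of female replicates 1, 2, 3 and 4 (adjusted p from 0.0606 to 0.0799) and by limma-voom (adjusted p = 0.395). The 3 calls of the list became 1 without male replicate 1, 3 or 4 or female replicate 2, 3 or 4, and 0 without female replicate 1. Slco1b2, the most abundant transporter, was at 828, 1087, 1195 and 623 CPM in the females and 844, 1132, 719 and 727 CPM in the males and was not called.

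Over the whole drug metabolism programme the median log2 fold change was 0.23, and 26 of 220 genes were called. Without male replicate 1, 3 or 4 the count was 15, 15 and 16, without female replicate 4 it was 17, and from the 8 CRE- libraries alone it was 45, or 41 without male replicate 3.

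Promoters of the called genes were searched for the letters of a pair of factors that act on sex-dependent liver genes. Promoters of 300 bases around the gene start were found in RefSeq (GRCm38.p6) for 110 of the 147 called genes and searched on both strands for TTCNNNGAA, the letters STAT5 reads, and ATCAAT, a core of HNF6 sites. TTCNNNGAA occurred in 8.30% of the 32851 promoters of the table, 7.05% of those of autosomal genes tested, 8.20% of the 61 of genes called higher and 5.68% of the 88 of genes called lower. ATCAAT occurred in 7.54% of all promoters, 4.79% of those of autosomal genes tested, 21.3% of those called higher and 9.09% of those called lower. Of the 13 promoters of genes called higher that held it, 8 belonged to P450 or sulfotransferase genes, which are paralogs and share sequence. Among all autosomal genes tested, 16 of the 72 promoters of P450 or sulfotransferase genes held ATCAAT. It was 8 of 17 among those called higher and 0 of 1 among those called lower. The part of these families in the share of 21.3% was not tested. Printed are the promoters of the P450 genes with the smallest p in each direction, Cyp3a41b (chr5:145584681-145584980, minus strand), Cyp3a16 (chr5:145469674-145469973, minus strand) and Cyp2d9 (chr15:82452127-82452426, plus strand); Cyp4a12a was the other gene of that rule. Capitals mark ATCAAT, which starts at base 180 of the Cyp3a41b promoter and base 176 of the Cyp3a16 promoter, and neither set of letters lies in the Cyp2d9 promoter. A match of letters is a description and not a binding site.
Cyp3a41b: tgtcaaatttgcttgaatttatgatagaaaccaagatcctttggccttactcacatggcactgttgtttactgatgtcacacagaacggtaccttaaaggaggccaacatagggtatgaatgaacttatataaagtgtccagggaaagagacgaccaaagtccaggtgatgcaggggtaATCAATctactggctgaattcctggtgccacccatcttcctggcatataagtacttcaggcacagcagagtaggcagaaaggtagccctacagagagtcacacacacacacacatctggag
Cyp3a16: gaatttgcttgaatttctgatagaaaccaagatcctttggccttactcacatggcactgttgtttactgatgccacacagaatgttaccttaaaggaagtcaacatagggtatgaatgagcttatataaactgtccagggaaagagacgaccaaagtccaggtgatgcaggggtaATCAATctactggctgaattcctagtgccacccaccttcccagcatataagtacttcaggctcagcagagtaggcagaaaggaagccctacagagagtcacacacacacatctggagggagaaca
Cyp2d9: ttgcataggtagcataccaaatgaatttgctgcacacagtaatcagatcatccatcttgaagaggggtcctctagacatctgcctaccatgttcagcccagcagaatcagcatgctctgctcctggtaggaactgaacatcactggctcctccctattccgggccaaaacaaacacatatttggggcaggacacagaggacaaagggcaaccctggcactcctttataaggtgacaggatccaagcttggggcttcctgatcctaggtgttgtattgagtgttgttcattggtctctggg

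Of 20 genes of the major urinary proteins tested 3 were lower in females and 0 higher, and the median log2 fold change was -1.44. In 9 of the 20 every female was below every male, against no overlap in either direction in 7.49% of all genes tested. Mup20, or darcin, a male urinary pheromone, was at 32.1, 39.8, 69.6 and 28.9 CPM in the females and 3690.0, 1840.2, 3432 and 4165 CPM in the males (log2 fold change -6.27, SE 1.03, edgeR adjusted p = 0.00553). Mup7 was at 0.0444, 0.0389, 0.0479 and 0 CPM in the females and 33.5, 204, 9.23 and 87.0 CPM in the males (log2 fold change -11.14, SE 2.15, edgeR adjusted p = 0.0279). Mup14 had 2 reads in all the females against 909 in the males, a ratio of 451 with an exact 95% counting interval of 124 to 3727 (edgeR adjusted p = 0.0278), its male levels being 2.58, 7.78, 4.03 and 6.25 CPM. The interval takes each read as independent although a fragment can give 2 reads, so it may be too narrow. The log2 fold change of Mup14 was -8.49. Both of those female reads were in replicate 3, without which the females had no reads and no exact fold is given. Females were lowest in all 3, and the males varied widely for Mup7, whose log2 fold change was -10.19 without male replicate 2. Mup20 kept its call in each fit without 1 library, while Mup14 lost it without any one of male replicates 1 and 3 or female replicates 1, 2, 3 and 4 (adjusted p from 0.0553 to 0.116) and Mup7 without any one of male replicate 1 or female replicates 1, 2, 3 and 4 (adjusted p from 0.0569 to 0.119). Neither of these 2 was called by limma-voom (adjusted p = 0.475 and 0.560). The 3 calls became 2 without male replicate 3, 1 without male replicate 1 or any one female, and 7 from the 8 CRE- libraries alone. Mup3, the most abundant Mup per kilobase, was at 501, 787, 1397 and 516 CPM in the females and 3613, 3697, 2585 and 3667 CPM in the males and did not pass (log2 fold change -2.08, SE 1.02, edgeR adjusted p = 0.413), although no values overlapped. Summed over the list, Mup reads came to 569, 973, 1645 and 653 CPM in the females and 7492, 6154, 6158 and 8112 CPM in the males.

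Of 19 serpins of clade A, which inhibit proteases or carry hormones, 1 was higher and 1 lower. Serpina3m was at 689, 618, 518 and 709 CPM in the females and 235, 451, 227 and 369.9 CPM in the males (log2 fold change 0.98, SE 0.22, edgeR adjusted p = 0.0417), and Serpina12, or vaspin, at 14.3, 10.3, 9.58 and 29.6 CPM in the females and 52.0, 35.2, 90.1 and 94.1 CPM in the males (log2 fold change -2.09, SE 0.47, edgeR adjusted p = 0.0417). Both groups were separate for each gene, by a narrow margin for Serpina12 between female replicate 4 and male replicate 2. C6, a component of the membrane attack complex, was the 1 gene called by edgeR of 30 complement factors, lower at 21.8, 13.6, 14.2 and 50.4 CPM in the females and 159, 76.5, 264 and 143 CPM in the males (log2 fold change -2.69, SE 0.60, edgeR adjusted p = 0.0417). Agt, the precursor of angiotensin, was the 1 gene called by edgeR of 36 hormones, carriers and binding proteins, higher at 868, 992, 951 and 1104 CPM in the females and 398, 657, 506 and 561 CPM in the males (log2 fold change 0.88, SE 0.20, edgeR adjusted p = 0.0417). No female and male values overlapped for either gene. Of the complement factors DESeq2 called 1 higher and 2 lower and limma-voom 1 higher and 3 lower. EdgeR called 2 lower without female replicate 1, where C6 was not called, and 2 lower from the 8 CRE- libraries without male replicate 3. It called 0 without male replicate 1, 3 or 4 or female replicate 2 or 3. Of the hormones and carriers DESeq2 called 5 higher and 2 lower, limma-voom 4 higher and 1 lower, and edgeR 3 higher and 0 lower from the 8 CRE- libraries alone. Serpina3m and Agt lost their calls without any one library except male replicate 2, with adjusted p up to 0.171 and 0.183; Serpina12 and C6 lost theirs without any one library except male replicate 2 and female replicate 4, with adjusted p up to 0.166 and 0.158. From the 8 CRE- libraries alone Serpina3m and Agt were not called (adjusted p = 0.107 and 0.0614), nor with no filter on low counts (0.0569 and 0.0775), and Serpina12 was not called from the 8 without male replicate 3 (0.0522). Without female replicate 4 the log2 fold change of C6 was -3.32. Serpina1b, the most abundant serpin, was not called (log2 fold change 0.50, SE 0.24, edgeR adjusted p = 0.398). Complement C3, the most abundant complement gene, was at 15249, 9355, 9725 and 9747 CPM in the females and 7485, 8240.3, 12277 and 6606 CPM in the males and overlapped, as did the hemopexin gene Hpx at 8228, 3238, 4176 and 6647 CPM in the females and 5315, 4695, 5658 and 7056 CPM in the males.

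The other plasma protein lists gave no calls. None of 22 coagulation factors was called by edgeR (10 with an unadjusted p under 0.05, 0 by DESeq2 and 0 by limma-voom), with a median of 0.41. Every female was above every male in 7 of the 22, against no overlap in either direction in 7.49% of all genes tested. Fgb, the fibrinogen beta chain, was at 10388, 4419.7, 4575 and 5544 CPM in the females and 4102, 4395, 3637 and 5967 CPM in the males, with overlap. None of 19 acute-phase proteins was called by edgeR (4 with an unadjusted p under 0.05, 0 by DESeq2 and 0 by limma-voom). Saa1, looked at after its values were seen, was at 621, 43.8, 70.3 and 234 CPM in the females and 96.0, 85.8, 20.7 and 147 CPM in the males, high in female replicates 1 and 4. None of 14 apolipoproteins was called by edgeR (1 with an unadjusted p under 0.05, 1 by DESeq2 and 1 by limma-voom), and Apoe was at 16188, 19748, 20413 and 22739 CPM in the females and 14872, 20663, 10943 and 21645 CPM in the males. Without male replicate 4 edgeR called 1 apolipoprotein. Alb itself was at 92405, 90167, 94346 and 105504 CPM in the females and 51070.0, 74347, 89873 and 69968 CPM in the males, with every female above every male but no call (log2 fold change 0.42, SE 0.24, edgeR adjusted p = 0.478). Across all 160 secreted proteins the median was 0.20 and 7 were called. The count was 1, 2 and 4 without male replicate 1, 3 or 4, 4, 1, 1 and 3 without female replicate 1, 2, 3 or 4, and 14 from the 8 CRE- libraries alone, or 15 without male replicate 3.

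**Figure D3:**
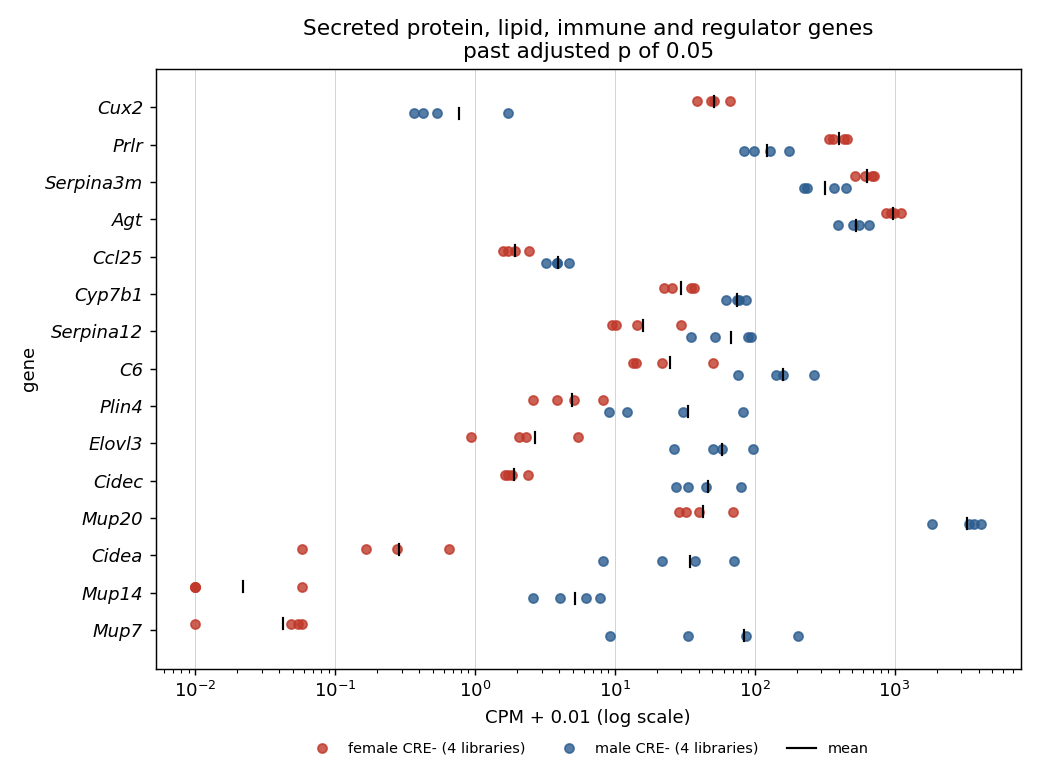
CPM (log axis) in each female and male CRE- library, 1 point per mouse. Drawn are the 15 called genes of the secreted protein, lipid, immune and regulator lists that are not in the drug metabolism lists. Mup20 lies between 28.9 and 69.6 CPM in females and between 1840.2 and 4165 CPM in males.

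In lipid metabolism, of 33 genes of droplets and fatty acid uptake 3 were lower and 0 higher by edgeR, with a median of 0.02. Limma-voom called 2 higher and 1 lower. DESeq2, and edgeR without male replicate 2, called 1 higher and 3 lower. Every female lay above every male in 2 of the 33 and below in 3, against no overlap in 7.49% of all genes tested. Cidec, which fuses droplets, was at 1.64, 1.83, 1.72 and 2.38 CPM in the females and 27.4, 79.8, 33.2 and 45.3 CPM in the males (log2 fold change -4.62, SE 0.54, edgeR adjusted p = 0.000167). Cidea, of the same family, was at 0.266, 0.156, 0.0479 and 0.641 CPM in the females and 8.20, 71.2, 21.6 and 37.6 CPM in the males (log2 fold change -6.99, SE 1.21, edgeR adjusted p = 0.00818). Plin4, a perilipin, was at 3.88, 8.29, 5.08 and 2.59 CPM in the females and 12.3, 30.9, 82.2 and 9.08 CPM in the males (log2 fold change -2.76, SE 0.55, edgeR adjusted p = 0.0222). The groups were separate in all 3, Plin4 being high in male replicate 3, without which its log2 fold change was -1.82. That of Cidea was -6.36 without male replicate 2 and -7.78 without female replicate 4. Cidec and Cidea kept their calls in each edgeR fit without 1 library, and Plin4 lost it without any one of male replicate 3 or female replicates 1, 3 and 4 (adjusted p from 0.0575 to 0.0945) and from the 8 CRE- libraries alone (adjusted p = 0.0614). By limma-voom neither Cidea nor Plin4 was called (adjusted p = 0.267 and 0.0761). Fabp1, the most abundant gene of that list, was at 1849, 3872, 3931 and 3231 CPM in the females and 2821, 3779.7, 1526 and 3509 CPM in the males and overlapped. Elovl3, which lengthens very long fatty acids, was the 1 gene called of 26 lipogenesis genes, at 0.932, 5.45, 2.06 and 2.30 CPM in the females and 58.5, 50.6, 26.4 and 97.3 CPM in the males (log2 fold change -4.43, SE 1.02, edgeR adjusted p = 0.0494), and lost its call in each of the 8 fits without 1 CRE- library (adjusted p from 0.0687 to 0.183). Without female replicate 2 its log2 fold change was -5.05, and with a filter of a mean of at least 1 CPM it was not called (adjusted p = 0.0502). Scd1, the stearoyl-CoA desaturase and the most abundant of these, was at 9839, 12131, 12617 and 13706 CPM in the females and 12655, 24681, 36017 and 15433 CPM in the males, with overlap, and was not called (log2 fold change -0.88, SE 0.31, edgeR adjusted p = 0.236).

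Of 27 genes of bile acid synthesis and transport 1 was higher (Cyp2c70) and 2 lower (Slco1a1 and Cyp7b1). The 3 calls became 1 without male replicate 1, 2 without male replicate 3 or female replicate 2 or 3, and 0 without female replicate 1 or 4. Cyp7b1, the oxysterol hydroxylase of the alternative pathway, was at 22.4, 37.1, 34.8 and 25.7 CPM in the females and 77.3, 86.8, 62.2 and 74.8 CPM in the males (log2 fold change -1.33, SE 0.26, edgeR adjusted p = 0.0193), with no overlap. Its call was lost without any one of male replicate 1 or female replicates 1 and 4 (adjusted p from 0.0553 to 0.0741). Cyp7a1, the rate-limiting enzyme of the classic pathway, was at 79.2, 79.0, 90.7 and 107 CPM in the females and 69.2, 188, 178 and 64.5 CPM in the males and was not called (-0.49, adjusted p = 0.731 by edgeR), nor was Cyp8b1 (-1.28, adjusted p = 0.465); both were looked at after their values were seen. With the replicate number as a term in the edgeR fit, 3 genes of cholesterol synthesis and uptake were called, all higher. Without that term edgeR called none of 25 (9 with an unadjusted p under 0.05, 1 by DESeq2 and 1 by limma-voom). The median of these 25 genes was 0.58. Fdps, their most abundant gene, was at 512, 369.8, 395 and 950.2 CPM in the females and 261, 441, 203 and 586 CPM in the males, highest in replicate 4 of each sex. None of 35 genes of fatty acid oxidation and ketogenesis was called by edgeR (3 with an unadjusted p under 0.05, 0 by DESeq2 and 0 by limma-voom), and Acaa1b was at 533, 1837, 1797 and 1373 CPM in the females and 1534, 2791, 1155 and 1777 CPM in the males, with overlap. Scp2, a sterol carrier and the most abundant bile acid gene, was at 1657, 2645, 2462 and 1680.2 CPM in the females and 2731, 3818, 3521 and 3031 CPM in the males, lower in every female but not called (log2 fold change -0.63, SE 0.27, edgeR adjusted p = 0.337). The median over the 146 lipid genes was 0.18. The 7 called became 4 and 4 without male replicate 1 or 3 and 2, 4 and 2 without female replicate 1, 3 or 4.

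Of 188 immune genes tested 1 was called (0.532%, against 0.907% of all genes tested). It was Ccl25, a chemokine for lymphocytes bearing CCR9, at 1.73, 1.93, 2.44 and 1.58 CPM in the females and 4.67, 3.88, 3.85 and 3.21 CPM in the males (log2 fold change -1.02, SE 0.22, edgeR adjusted p = 0.0370). No values overlapped, but the call was lost without any one of male replicates 1, 2 and 3 or female replicates 1, 2 and 4 (adjusted p from 0.0622 to 0.121), and Ccl25 was not called from the 8 CRE- libraries alone (adjusted p = 0.0863), from those without male replicate 3 (0.103) or with no filter on low counts (0.0899). With the replicate number as a term in the fit Ccl25 was not called either (edgeR adjusted p = 0.0515). The median over the immune genes was 0.01. These counts cover the list alone, and the called gene Il12rb1, a chain of the interleukin-12 receptor, is not in it. None of 21 genes of MHC class I and antigen processing was called by edgeR (1 with an unadjusted p under 0.05, 0 by DESeq2 and 0 by limma-voom), with sums of 7098, 7238, 7051 and 10057 CPM in the females and 7885, 6945, 4174 and 9808 CPM in the males, and the sexes overlapped. None of 11 MHC class II genes was called by edgeR (0 with an unadjusted p under 0.05, 0 by DESeq2 and 0 by limma-voom), with sums of 501, 326, 471 and 1578 CPM in the females and 1063, 286, 289 and 1598 CPM in the males. None of 42 interferon-stimulated genes was called by edgeR (1 with an unadjusted p under 0.05, 0 by DESeq2 and 0 by limma-voom), and their sums were 1588, 1223, 1297 and 1578 CPM in the females and 1703, 1110.4, 1043 and 1702 CPM in the males. The sexes overlapped in all 3 lists, and male replicates 2 and 3 were lowest or near it in each. Bst2 led the interferon-stimulated genes and Cxcl12 the chemokines and cytokines, with log2 fold changes of 0.27 and 0.05 (edgeR adjusted p = 0.704 and 0.934). Cd74, the invariant chain, led MHC class II at 219.9, 143, 199 and 748 CPM in the females and 467, 127, 123.1 and 754 CPM in the males, and B2m led class I at 1640.4, 1774, 1813 and 2449 CPM in the females and 1814, 1593, 833 and 2476 CPM in the males.

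Summed markers of immune cells overlapped between the sexes in every list. The 10 autosomal Kupffer cell markers, led by C1qa, summed to 815, 601, 662 and 1368 CPM in the females and 915, 504, 242 and 1395 CPM in the males, and the 14 of monocytes and recruited macrophages, led by Lyz2, to 498, 312, 346 and 563 CPM in the females and 609, 264, 209 and 864 CPM in the males. Female replicate 4 and male replicate 4 were the highest of their sex in both lists and male replicate 3 the lowest library. The 13 neutrophil markers, 12 of them tested and led by S100a9, summed to 45.3, 24.9, 19.3 and 56.9 CPM in the females and 117, 24.8, 23.04 and 235 CPM in the males. Male replicates 1 and 4 were above every female, the median of the list was -1.90, and 0 were called by edgeR (6 with an unadjusted p under 0.05, 1 by DESeq2 and 0 by limma-voom). The 23 markers of T and NK cells, led by Trbc2, summed to 50.9, 30.2, 40.9 and 69.5 CPM in the females and 51.5, 31.0, 21.8 and 58.2 CPM in the males, and the 21 of B and plasma cells, led by Igkc, to 1111, 796, 883 and 1106 CPM in the females and 907, 858, 744 and 1130.3 CPM in the males. The largest parts of that last sum, looked up after the values were seen, were Sdc1, at 380.4, 401, 318 and 494 CPM in the females and 216, 277, 301 and 252 CPM in the males, and Xbp1, which hepatocytes also make. Igkc was at 105, 46.3, 84.9 and 111 CPM in the females and 128, 54.2, 51.4 and 182 CPM in the males, with overlap. None of these lists had a called gene by edgeR: Kupffer cells had 0 with an unadjusted p under 0.05, 0 by DESeq2 and 0 by limma-voom, monocytes 1 with an unadjusted p under 0.05, 0 by DESeq2 and 0 by limma-voom, T and NK cells 0 with an unadjusted p under 0.05, 0 by DESeq2 and 0 by limma-voom, and B and plasma cells 3 with an unadjusted p under 0.05, 0 by DESeq2 and 0 by limma-voom.

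Markers of the other cell types were read in the same way. Sinusoidal endothelium (13 of 13 tested, led by Clec4g) summed to 353, 476, 454 and 456 CPM in the females and 270.1, 448, 328 and 367 CPM in the males, and stellate cells and fibroblasts (13 autosomal, led by Dcn) to 540.2, 678, 692 and 694 CPM in the females and 515, 510.3, 797 and 674 CPM in the males. Erythroid markers (6 autosomal, led by Hbb-bs) summed to 514, 459, 364 and 749.6 CPM in the females and 683, 490.4, 460.3 and 914 CPM in the males. The sexes overlapped in all 3 lists, and 0 genes were called by edgeR, with an unadjusted p under 0.05 in 2, 1 and 0 genes and 0 called by DESeq2 or limma-voom. The 9 cholangiocyte markers, led by Spp1, summed to 134, 81.2, 68.6 and 77.4 CPM in the females and 75.1, 54.5, 57.2 and 119.9 CPM in the males, and Krt19, a keratin of bile duct cells, was higher at 3.02, 1.81, 2.01 and 2.19 CPM in the females and 0.791, 0.624, 0.676 and 0.764 CPM in the males (log2 fold change 1.66, SE 0.35, edgeR adjusted p = 0.0300). The call of Krt19 was lost in each of the 8 fits without 1 CRE- library (adjusted p from 0.0562 to 0.0989) and with no filter on low counts (0.0551). The 14 proliferation markers, led by Ube2c, summed to 15.5, 16.3, 9.86 and 26.8 CPM in the females and 20.4, 12.3, 31.5 and 17.8 CPM in the males, with 0 called by edgeR (1 with an unadjusted p under 0.05, 1 by DESeq2 and 0 by limma-voom), or 1 without male replicate 4.

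Markers of tissues beside the liver differed between libraries. The 11 pancreatic acinar markers, led by Cela2a and with Amy2a5 at 0 reads in all 8 libraries, summed to 8.27, 919.8, 9.46 and 12.1 CPM in the females and 7.45, 222, 3.07 and 10.9 CPM in the males, so replicate 2 of each sex was far above the rest. The 8 skeletal muscle markers, led by Mylpf, summed to 10.5, 1.32, 1.41 and 36.9 CPM in the females and 1.05, 1.63, 0.780 and 1.21 CPM in the males, with female replicates 1 and 4 above all others. The 6 adipocyte markers, led by Car3, which hepatocytes also make, summed to 1393, 3738, 3128 and 2846 CPM in the females and 2468, 4388, 2944 and 2973 CPM in the males. The other 5 were looked up after the values were seen. Adipoq was at 1.73, 1.05, 0.718 and 0.641 CPM in the females and 0, 0.178, 0 and 0 CPM in the males. Cfd was at 3.77, 1.25, 0.718 and 1.34 CPM in the females and 3.85, 21.5, 0.780 and 22.0 CPM in the males, and Retn at 0.621, 0.195, 0.239 and 0.909 CPM in the females and 0, 0.356, 0 and 0.315 CPM in the males. Both overlapped, Cfd being highest in male replicates 2 and 4. Lep and Plin1 had no reads in any male and up to 0.389 and 0.843 CPM in the females, every female having reads of both. None of these markers was called by edgeR: acinar markers had 0 with an unadjusted p under 0.05, 0 by DESeq2 and 0 by limma-voom of 2 tested, muscle markers 6 with an unadjusted p under 0.05, 0 by DESeq2 and 0 by limma-voom, and adipocyte markers 3 with an unadjusted p under 0.05, 0 by DESeq2 and 1 by limma-voom. The leading markers of the cell types, C1qa, Lyz2, S100a9, Trbc2, Igkc, Clec4g, Dcn, Hbb-bs, Spp1, Ube2c, Cela2a, Mylpf and Car3, were not called, and their log2 fold changes ran from -1.60 for S100a9 to 1.87 for Cela2a. The value of Cela2a was -5.22 without female replicate 2. The part of these tissues and of immune cells in the differences between the sexes was not tested.

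Of 43 tested genes of the growth hormone axis and transcription regulators, 2 were higher and 0 lower, with a median of 0.05. Prlr, the prolactin receptor, was at 343, 432, 362 and 458 CPM in the females and 99.5, 176, 128 and 84.1 CPM in the males (log2 fold change 1.71, SE 0.24, edgeR adjusted p = 0.00108). Cux2, the female-biased repressor, was at 51.2, 38.7, 66.7 and 48.4 CPM in the females and 0.527, 1.72, 0.416 and 0.360 CPM in the males (log2 fold change 6.08, SE 1.33, edgeR adjusted p = 0.0394). The groups were far apart in both, with male replicate 2 the highest male. Prlr kept its call in each fit without 1 library, whereas Cux2 lost it in each of the 8 fits without 1 CRE- library (adjusted p from 0.0590 to 0.153). Those fits kept every LKO library, and from the 8 CRE- libraries alone edgeR called Cux2. Without male replicate 2 the log2 fold change of Cux2 was 6.87. Bcl6, the male-biased repressor, was at 8.14, 4.30, 8.40 and 7.99 CPM in the females and 50.3, 10.5, 10.7 and 46.3 CPM in the males and did not pass (log2 fold change -2.03, SE 0.53, edgeR adjusted p = 0.0929), although no values overlapped. Esr1, the estrogen receptor, was at 57.2, 55.2, 40.0 and 44.8 CPM in the females and 26.1, 22.9, 39.4 and 21.4 CPM in the males and did not pass either (log2 fold change 0.84, SE 0.26, edgeR adjusted p = 0.170). Bcl6 was high in male replicates 1 and 4, and Esr1 in male replicate 3 came close to the lowest female. Ghr, the growth hormone receptor, was at 372, 470.3, 479 and 428 CPM in the females and 425, 538, 515 and 387 CPM in the males. Stat5b was at 73.8, 88.5, 83.0 and 65.0 CPM in the females and 67.9, 53.4, 77.6 and 52.3 CPM in the males. Hnf4a, which sets hepatocyte identity, was at 621, 585, 595 and 539 CPM in the females and 453, 648, 659.7 and 448 CPM in the males. All 3 overlapped between the sexes and were not called (edgeR adjusted p = 0.900, 0.537 and 0.873). Cebpa, the most abundant of the list, was at 399, 560.5, 697 and 743 CPM in the females and 480.1, 692, 553 and 639 CPM in the males.

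The other called genes with the smallest p lay outside the lists. A1bg, a plasma glycoprotein, was at 1363, 2996, 935 and 4711 CPM in the females and 0.284, 2.43, 0.156 and 0.135 CPM in the males (log2 fold change 11.69, SE 1.499, edgeR adjusted p = 0.000473). Eci3, an enoyl-CoA isomerase, was at 12.7, 27.8, 11.1 and 35.1 CPM in the females and 0.223, 0.490, 0.364 and 0.225 CPM in the males (log2 fold change 6.05, SE 0.66, edgeR adjusted p = 8.41e-05). Prom1, a membrane protein found on bile duct and progenitor cells, was at 35.8, 27.2, 22.1 and 42.7 CPM in the females and 0.629, 0.936, 2.13 and 0.449 CPM in the males (log2 fold change 4.96, SE 0.61, edgeR adjusted p = 0.000319). All 3 were higher in every female, A1bg with female values that spread widely. Without male replicate 2 the log2 fold change of A1bg was 13.63, and without male replicate 3 that of Prom1 was 5.56. The transcript 2310015A16Rik was at 37.2, 45.5, 31.6 and 62.8 CPM in the females and 5.92, 10.3, 7.12 and 7.19 CPM in the males (log2 fold change 2.54, SE 0.33, edgeR adjusted p = 0.000519). Lower in females were a pair of acetyltransferase genes side by side on chr6:85794200-85813839, Nat8f5 at 0.0444, 0.0779, 0.0479 and 0.0535 CPM in the females and 4.42, 11.6, 4.89 and 5.80 CPM in the males (log2 fold change -6.81, SE 0.76, edgeR adjusted p = 0.000109) and Nat8 at 2.42, 1.36, 1.44 and 1.82 CPM in the females and 20.8, 34.3, 18.9 and 30.0 CPM in the males (log2 fold change -3.89, SE 0.55, edgeR adjusted p = 0.00118). All 4 females were low in both. Arsa, the lysosomal arylsulfatase, was at 14.7, 16.2, 24.1 and 17.1 CPM in the females and 102, 118, 76.8 and 93.5 CPM in the males (log2 fold change -2.44, SE 0.30, edgeR adjusted p = 0.000319). Osbpl3, an oxysterol-binding protein, was at 3.06, 2.37, 2.59 and 2.67 CPM in the females and 15.2, 26.4, 52.0 and 14.1 CPM in the males (log2 fold change -3.33, SE 0.41, edgeR adjusted p = 0.000319). Dpy19l3, a mannosyltransferase, was at 2.93, 1.91, 2.15 and 3.10 CPM in the females and 30.8, 20.3, 25.9 and 15.4 CPM in the males (log2 fold change -3.20, SE 0.42, edgeR adjusted p = 0.000589). No female reached the lowest male in any of these genes, and all kept their calls in each fit without 1 library.

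Zfp979, a zinc finger gene, was also lower, at 0.0887, 0.195, 0.239 and 0.214 CPM in the females and 5.60, 10.7, 4.63 and 4.11 CPM in the males (log2 fold change -5.07, SE 0.46, edgeR adjusted p = 8.66e-06), and Zfp992 at 0.311, 0.311, 0.790 and 0.321 CPM in the females and 10.02, 12.7, 6.40 and 9.75 CPM in the males (log2 fold change -4.49, SE 0.59, edgeR adjusted p = 0.000548). Gm4956 was at 0.887, 0.273, 0.742 and 0.374 CPM in the females and 9.05, 13.9, 7.38 and 8.90 CPM in the males (log2 fold change -4.10, SE 0.52, edgeR adjusted p = 0.000379). Each was low in all 4 females, and each call held in every fit without 1 library. The following genes were picked after their values were seen. Zfp982, beside Zfp979 on chr4:147527571-147727004, was at 3.24, 7.40, 7.25 and 2.41 CPM in the females and 31.1, 43.4, 28.5 and 21.9 CPM in the males (-2.62, adjusted p = 0.0399 by edgeR), and lost its call in each of the 8 fits without 1 CRE- library (adjusted p from 0.0510 to 0.139). Hacl1, an enzyme of peroxisomal alpha-oxidation, was at 605, 892, 636 and 621 CPM in the females and 203, 334, 127 and 234 CPM in the males (log2 fold change 1.62, SE 0.28, edgeR adjusted p = 0.00888). Nt5e, which makes adenosine, was at 68.1, 101, 64.6 and 66.9 CPM in the females and 6.01, 13.3, 20.1 and 4.99 CPM in the males (log2 fold change 2.76, SE 0.46, edgeR adjusted p = 0.00598). Adcy1, an adenylate cyclase, was at 44.9, 20.0, 4.21 and 14.2 CPM in the females and 0.203, 0.267, 0.676 and 0.270 CPM in the males (log2 fold change 5.89, SE 0.89, edgeR adjusted p = 0.00227). These 3 were higher in every female and kept their calls in each edgeR fit without 1 library, but limma-voom did not call Adcy1 (adjusted p = 0.138), and its log2 fold change was 5.19 without female replicate 1. Gnai1, an inhibitory G protein subunit, was lower, at 1.24, 1.13, 1.25 and 1.39 CPM in the females and 4.14, 6.77, 7.18 and 3.37 CPM in the males (log2 fold change -2.10, SE 0.33, edgeR adjusted p = 0.00352), and also kept its call. Mtnr1a, a melatonin receptor, was at 0.0887, 0.195, 0.192 and 0.535 CPM in the females and 2.21, 1.60, 3.69 and 2.11 CPM in the males (-3.26, adjusted p = 0.0144), and lost its call without any one of female replicates 1, 2 and 3 (adjusted p from 0.0513 to 0.0686). Without female replicate 4 its log2 fold change was -3.94. Avpr1a, the vasopressin receptor of hepatocytes, was at 48.6, 31.2, 23.3 and 18.8 CPM in the females and 10.2, 6.64, 10.7 and 10.6 CPM in the males (1.67, adjusted p = 0.0454), and lost its call in each of the 8 fits without 1 CRE- library (adjusted p from 0.0659 to 0.147). Il12rb1, a chain of the interleukin-12 receptor, was at 1.02, 0.409, 0.958 and 1.18 CPM in the females and 4.81, 4.37, 2.03 and 4.38 CPM in the males (-2.13, adjusted p = 0.0234), and lost its call without any one of male replicates 1 and 4 or female replicates 1, 2 and 3 (adjusted p from 0.0507 to 0.0882).

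The same contrast was read in the LKO livers, which share no library with the controls but share the fit. Gcgr was at 48.8, 132, 119 and 93.6 CPM in LKO females and 117, 136, 129.9 and 160.3 CPM in LKO males, against 162, 208, 201 and 179.99 CPM and 190.4, 193, 127 and 189.6 CPM in the controls. The recombination sites flank only part of the Gcgr exons, so counts over the whole gene can hold reads of the remaining exons. These levels therefore do not measure the loss of the receptor. In the LKO livers 184 of 16212 autosomal genes (1.13%) were called, 85 higher and 99 lower. Male LKO replicate 1 stood apart: among the male LKO libraries it was the lowest for 63 of the 81 genes lower in control females, and for the other males those counts were 4, 13 and 1. Its Ddx3y level was that of a male. Mup20 was at 31.5, 106, 199.8 and 15.9 CPM in LKO females and 233, 10149, 18454 and 12301 CPM in LKO males. Sult2a2 was at 161, 618, 605 and 359 CPM in LKO females and 162, 0.0625, 0 and 0 CPM in LKO males. Slco1a1 was at 0, 0.0997, 0.0549 and 0.145 CPM in LKO females and 0.257, 422, 383 and 330.0 CPM in LKO males. In all 3 genes male LKO replicate 1 was nearer the females than the other males were. Of the 147 control calls, 56 were also called in LKO in the same direction, 38.1% of the control calls and 30.4% of the LKO calls. Without male LKO replicate 1, a library picked out on these same genes after the values were seen, the LKO count was 390 and 74 were shared, 50.3% and 18.97%. No gene was called in opposite directions, 137 of the 147 had the same sign (136 without male LKO replicate 1), and their median LKO log2 fold changes were 1.45 for those higher and -1.63 for those lower in control females. The LKO count was 44, 68 and 49 without male LKO replicate 2, 3 or 4, 100, 652 and 75 without female LKO replicate 1, 2 or 4, 1040 by DESeq2 and 928 by limma-voom.

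The LKO values of single genes are given beside those of the controls. Cyp3a41b was at 21.2, 6.76, 1.90 and 23.8 CPM in LKO females and 0, 0.0416, 0.0248 and 0.0270 CPM in LKO males (log2 fold change 8.94, SE 0.85, adjusted p = 2.42e-05, against 12.84 in controls). Without male LKO replicate 1 its LKO log2 fold change was 8.59 (adjusted p = 7.00e-05). Cyp2d9 (log2 fold change -4.84, SE 0.50, adjusted p = 6.05e-05) and Cyp4a12a (log2 fold change -9.58, SE 1.01, adjusted p = 6.92e-05) were lower in LKO females by edgeR as in controls. Cux2 was at 36.9, 96.4, 37.2 and 25.6 CPM in LKO females and 60.4, 0.833, 0.894 and 0.540 CPM in LKO males and was not called there (log2 fold change 1.65, SE 1.07, adjusted p = 0.455). Without male LKO replicate 1 the value was 6.01 (adjusted p = 4.22e-05). Hacl1 (log2 fold change 0.06, SE 0.28, adjusted p = 0.939) and Dpy19l3 (log2 fold change -0.58, SE 0.39, adjusted p = 0.470) were not called in LKO by edgeR, and without male LKO replicate 1 they were 0.19 (adjusted p = 0.796) and -0.85 (adjusted p = 0.204). The test of the difference between the contrasts called 0 genes by edgeR, with 2602 at an unadjusted p under 0.05, 361 by DESeq2 and 29 by limma-voom, and a smallest adjusted p of 0.104. With no filter on low counts edgeR called 12. Leaving out 1 library gave 2 genes without male CRE- replicate 2, 14 without male LKO replicate 1, and 10, 14 and 2 without female LKO replicate 2, 3 or 4. Of the 147 genes called in controls, 74 had an unadjusted p under 0.05 for that difference by edgeR. Over all 16212 genes tested the number was 2602. The 147 were picked on control values that also enter this difference.

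**Figure D4:**
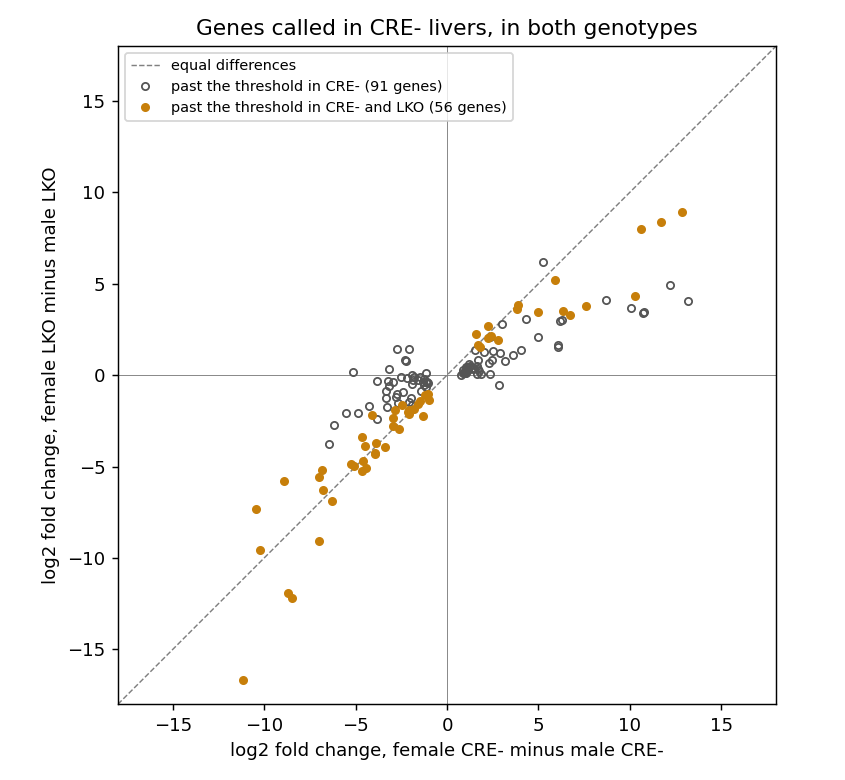
Female minus male log2 fold change of the 147 genes called in CRE- livers, in CRE- (horizontal) and in LKO livers (vertical), 1 point per gene. The 56 genes called in both genotypes and the 91 called in CRE- alone lie mostly in the quadrants of shared sign, with medians in LKO of 1.45 and -1.63.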

How the data were processed

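The deposited table holds raw counts per gene, which the authors made with featureCounts of Subread 2.0.6 and a RefSeq annotation after STAR 2.7.1a had placed the reads on GRCm39 with up to 20 loci each. Its command counted single reads on the gene's strand, so a fragment can give 2, and reads on several loci or genes were not counted. The 41079 genes were filtered with filterByExpr (minimum count 10, 16742 kept), scaled by TMM and fitted as 16 libraries in 4 groups by edgeR (version 4.0.16, R 4.3.3). Its quasi-likelihood test was used, and p-values were adjusted by Benjamini-Hochberg over all 16742 genes. "Called" means an adjusted p under 0.05. Alternatives were DESeq2 1.42.0, limma-voom with sample quality weights (limma 3.58.1), RLE scaling, other filters, thresholds and gene sets, a replicate block, the 8 CRE- libraries alone and each library left out in turn; the fit of the 8 without male replicate 3 was chosen after seeing the data.

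Genes were named by a rule: the 12 higher and 12 lower called autosomal genes with the smallest p and no overlap, the 2 called genes of smallest p in each direction of each list, the most abundant gene of each list by scaled reads per kilobase, every called regulator, and Gcgr, Ghr, Esr1, Stat5b, Bcl6, Cux2 and Hnf4a. The members and lists were chosen with earlier results of these data known, so lists are described by counts and medians with no test of their own. Lists leave out Hsd17b10, Serpina7, Vsig4, Timp1 and Alas2, which are not autosomal, and Ddx58, which is not in the table under that symbol. Intervals and floors of counts cover counting error only. They take each read as independent although a fragment can give 2, so intervals may be too narrow and folds given as "at least" too high.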

Additional observations from a re-analysis of the deposited data

Results flagged for a closer look

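Each value here is a library far from the other 3 of its group in the level of a named gene, by Dixon's test in log2 CPM; 19 of 180 groups were marked, and about 1 in 20 would be by chance. Several are at or near 0 reads: Cyp3a41b at 0.0520 CPM in male CRE- replicate 3, Cyp4a12b at 0.160 CPM in female CRE- replicate 4, Mup14 at 0.0479 CPM in female CRE- replicate 3 and Sult2a3 at 0.134 CPM in male CRE- replicate 2. In that male replicate 2, female-biased genes were the highest of the males, with A1bg at 2.43 CPM, Cux2 at 1.72 CPM and Sult2a2 at 1.56 CPM, and Ugt2b5 was also high at 929.5 CPM. Over the 66 genes higher in females, male replicate 2 was the highest male for 43, against 5, 8 and 7 for male replicates 1, 3 and 4. Cela2a, a pancreatic elastase, was high in replicate 2 of each sex, at 163 CPM in the female and 43.9 CPM in the male. In male replicate 3 Slco1a1 was high at 247 CPM, and Mup3 and Gcgr were the lowest of the males at 2585 and 127 CPM. Female replicate 1 was the highest female for S100a9, C3 and Spp1, at 14.9, 15249 and 98.0 CPM. Cd74 was at 748 CPM in female replicate 4, Zfp992 at 0.790 CPM in female replicate 3, and Bcl6 was lowest at 4.30 CPM in female replicate 2.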

How the results depend on the processing

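Every call rests on 4 mice a sex, sex cannot be told apart from cage or library letter, and reads of near-identical genes were dropped. Of the 90 named genes 47 were called, and their directions held under 17 alternatives (0 reversed), with 26 keeping the call under every alternative that tested them. Of the 43 that were not called, 21 changed sign under at least 1 alternative, 51 changes in all, Cela2a from 1.87 to -5.22 without female replicate 2 and Cyp2e1 from 0.02 to -0.30 without male replicate 3. The 147 genes called became 495 by DESeq2, 313 by limma-voom, 240 from the 8 CRE- libraries alone (230 without male replicate 3, chosen after seeing the data), 48 at an adjusted p under 0.01, and 62 to 142 with 1 library left out. The 26 of drug metabolism became 50 by DESeq2, 45 from the 8 alone (41 without male replicate 3), 14 at an adjusted p under 0.01 and 15 to 29 with 1 library left out. The 7 secreted proteins became 18 by DESeq2, 15 by limma-voom, 14 from the 8 alone (15 without male replicate 3), 1 at an adjusted p under 0.01 and 1 to 8 with 1 left out. The 7 lipid genes became 2 at an adjusted p under 0.01 and 2 to 7 with 1 left out, and limma-voom called 5 higher and 3 lower. The 1 immune gene became 3 by DESeq2, 0 with no filter, from the 8 alone (1, a different gene, without male replicate 3) and at an adjusted p under 0.01, and 0 or 1 with 1 left out. The 184 of the LKO livers became 1040 by DESeq2 and 44 to 652 with 1 left out. The 0 of the difference between genotypes became 361 by DESeq2, 29 by limma-voom, 12 with no filter on low counts and 0 to 14 with 1 left out. The cause was not tested. RLE scaling moved none of these counts by over 1.5 times, and neither did a mean of at least 1 CPM, which ended the calls of Elovl3, Cyp2a22 and Avpr1a. RLE scaling ended that of Avpr1a.

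With a replicate block, the replicate number of the labels as a term in the fit, 155 genes were called in the controls, 0 of them immune, and 496 in the LKO livers. Of the 147 control calls 120 were shared, and Sult2a2, Ces1b, Elovl3, Ccl25, Cyp2c68, Cyp2a22 and Avpr1a were among those that were not. With the block 3 genes of cholesterol synthesis and uptake were called, all higher, 3 hormones and carriers, all higher, and 2 steroid dehydrogenases and reductases. Deviations from the group means correlated by 0.211, 0.204, 0.0275 and 0.332 between the female and male CRE- replicates 1, 2, 3 and 4 over the genes tested, and each female but replicate 3 matched the male of its own number best. The labels give these numbers without saying what mice of equal number share, so this is a hint from the data and not the design.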
